A study of Homo sapiens with 6 samples.

Results

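The genes of MHC class I and its peptide loading were examined in SUM159 oncospheres with and without ectopic SCGB3A1. The 9 genes were 5 class I heavy chains (HLA-B, HLA-C, HLA-E, HLA-F and HLA-G), the light chain B2M, both subunits of the peptide transporter (TAP1 and TAP2) and tapasin (TAPBP). Every probe set annotated to exactly 1 of these symbols was taken, which gave 28 of the 54613 probe sets tested. SUM159 is an established human breast cancer cell line. One group of cells carried a pLVX-puro lentiviral vector with a synthesized human SCGB3A1 cDNA, a secreted protein of the secretoglobin family, and the other carried the empty pLVX-puro vector. Both groups were selected with puromycin (2 µg/ml, 7 days) and grown for 5 days on ultra-low attachment dishes as floating oncospheres, with 3 arrays in each group that the labels call biological replicates. Neither labels nor methods say whether replicates were separate transductions, whether selected cells were pooled or clonal, or which promoter drives the insert, so the spread behind each p-value is that between these arrays and may be technical.

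An MHC class I molecule displays short peptides from inside the cell to CD8+ T cells. Peptides cut by the proteasome are pumped into the endoplasmic reticulum by the TAP1/TAP2 transporter, where tapasin holds an empty heavy chain bound to B2M next to the transporter until a peptide fits. HLA-B and HLA-C are classical heavy chains that differ between people, whereas HLA-E, HLA-F and HLA-G vary little and are also read by receptors of natural killer cells. Interferons raise transcription of most of these genes, through interferon regulatory factors and through NLRC5, which acts on the promoters of heavy chains and B2M. Tumor cells that lose class I escape T cells but lose an inhibitory signal to natural killer cells.

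The arrays shared a common distribution by normalization, and all their medians were 6.92 on the log2 scale. Control replicate 2 stood apart from the rest, with correlations of 0.989 to 0.993 to the other arrays, against 0.993 to 0.996 among those. The SCGB3A1 probe set read 6.60, 6.92 and 6.71 in the arrays labelled SCGB3A1, against 6.80, 6.89 and 7.05 in control (-0.17 ± 0.10 SE on the log2 scale, limma adjusted p = 0.835). The study reports that expression of the inserted genes was checked by qPCR in transduced cells, SUM159 among them, without naming these arrays. It is not known here whether the array's SCGB3A1 probes match the insert, so groups are called by their labels throughout. Over 10 markers of mesenchymal-like breast cancer cells, group means ran from 10.03 (CDH2) to 14.37 (VIM, vimentin) in the SCGB3A1 arrays and from 10.14 to 14.42 in control, above the median probe set of the table (6.91). The 10 luminal markers were mixed. EPCAM, CDH1, KRT19, PGR and FOXA1 lay below that median in both groups, with EPCAM the lowest at 6.18 ± 0.16 in the SCGB3A1 arrays and 6.19 ± 0.15 in control (SD, n = 3 each), whereas ESR1 was just above it and GATA3, ERBB2, KRT8 and KRT18 were clearly above, with KRT18 at 11.52 ± 0.10 in the SCGB3A1 arrays and 11.44 ± 0.13 in control.

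None of the 28 probe sets passed adjusted p 0.05 in limma (0 of 28, where 0.0183% of all probe sets passed), and the smallest adjusted p was 0.72. The fold changes ran from -0.09 to 0.26 on the log2 scale, and the 95% intervals of all 28 lay between -0.25 and 0.43. The study's signature criteria (log2 fold change above 0.5 in size, unadjusted p under 0.05, adjusted p under 0.25) were met by 0 of the 28 and by 0.0311% of all probe sets. When each gene was read by its brightest probe set, 7 of the 9 genes were higher in the SCGB3A1 arrays (54.3% of all genes were), and the median log2 fold change was 0.10, beside 0.01 over all 19775 genes. Of the 28 probe sets, 24 read higher in the SCGB3A1 arrays and 4 lower, and 51.0% of all probe sets read higher. An unadjusted p under 0.05 was found for 4 of the 28, all higher and all of HLA-F or HLA-G (14.3%, where 6.20% of all probe sets were at this threshold, 3.09% higher and 3.10% lower). Without control replicate 3 this count was 2, and it was 0 of 13 when probe sets ending in _x_at were left out, since all 4 end so. This ending is the manufacturer's mark for probes that also match other genes, and 15 of the 17 heavy chain probe sets carry it. HLA genes are close in sequence, so a reading given to 1 heavy chain may hold signal of another, and all heavy chain values are uncertain in that sense. In RNA from whole cultures, fewer cells with a transcript and less of it per cell cannot be told apart.

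**Figure D1:**
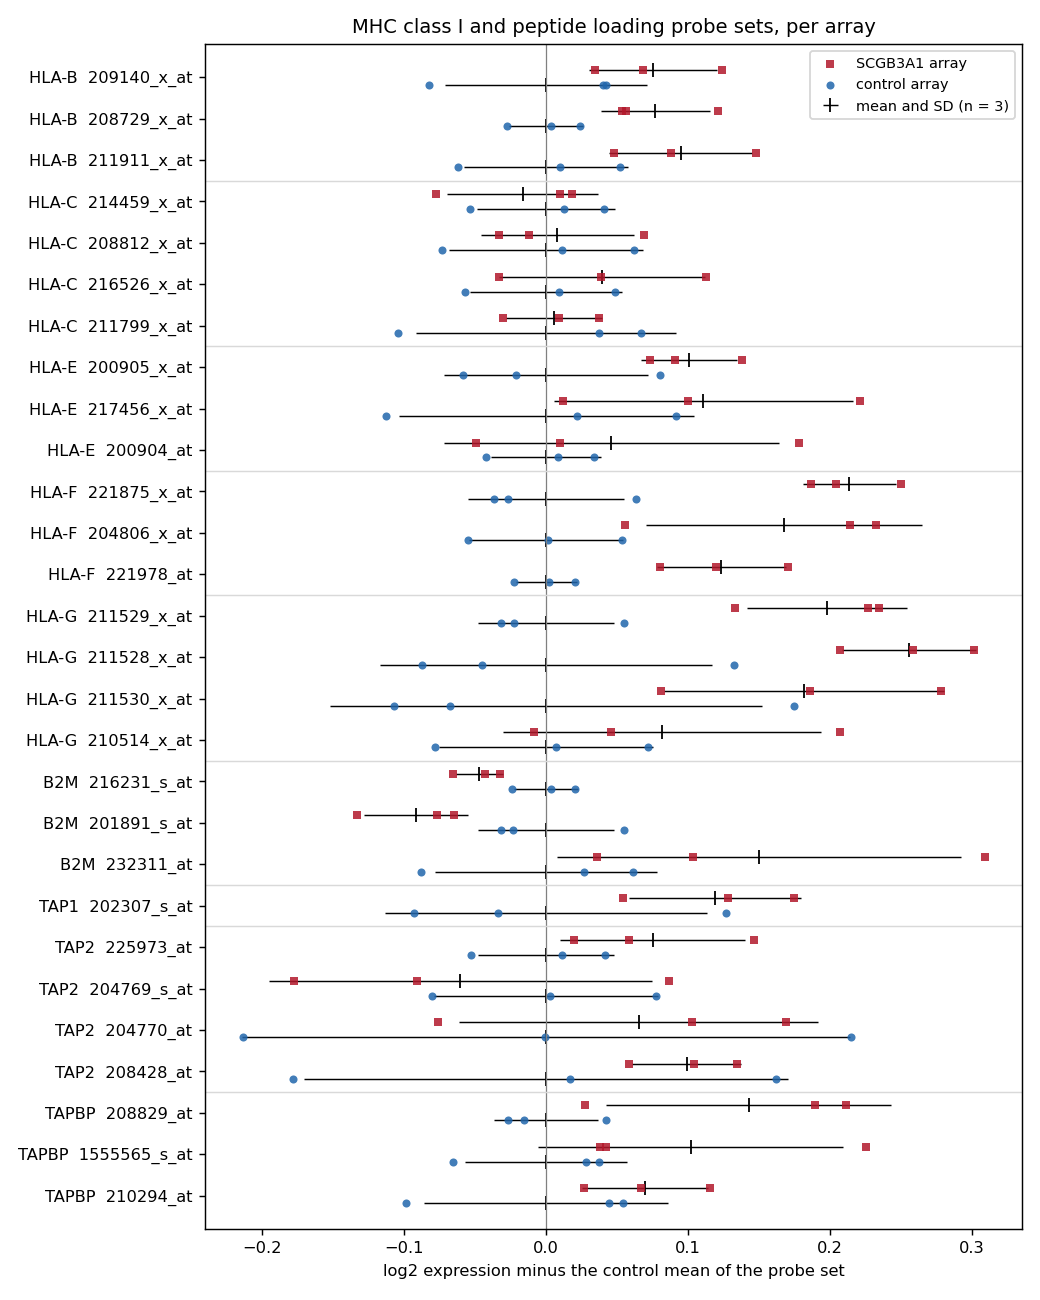
Log2 expression of each of the 28 probe sets per array, minus the control mean of that probe set (horizontal axis), with squares for the SCGB3A1 arrays, circles for control, and ticks with bars for each group's mean and SD (n = 3). The SCGB3A1 arrays lay above all control arrays for the 3 probe sets of HLA-F and below them for 2 of 3 of B2M.

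The groups did not overlap for 9 probe sets. In 7 of these all 3 SCGB3A1 arrays lay above all 3 controls (25.0% of the 28, beside 5.95% of all probe sets), and in 2 they lay below (7.14%, beside 5.25%). The 7 belonged to HLA-F (3), HLA-G (2), HLA-B (1) and TAPBP (1), and the 2 were both of B2M. By the brightest probe set, 2 of the 9 genes lay above (7.09% of all genes) and 1 below (5.24%). Averaged over the 9 genes, the deviation from the control mean was 0.11, 0.10 and 0.09 in SCGB3A1 replicates 1, 2 and 3, against 0.04, -0.03 and -0.01 in control. Control replicate 2, the array that stood apart, was the lowest of the 6 arrays for 15 of the 28 probe sets, and without it the median of the 9 genes was 0.073.

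HLA-F, a heavy chain that is found mostly inside cells and reaches the surface of activated lymphocytes, read higher in the SCGB3A1 arrays with each of its probe sets. Probe set 221875_x_at read 12.20, 12.18 and 12.24 in the SCGB3A1 arrays, against 12.05, 11.96 and 11.95 in control. The lowest SCGB3A1 array lay above the highest control array, and the log2 fold change was 0.21 ± 0.07 (SE), a 1.16-fold difference, with a 95% interval of 0.060 to 0.37 and an adjusted p of 0.737 in limma. Probe set 204806_x_at read 12.13, 12.15 and 11.968, against 11.91, 11.966 and 11.86 in control, so that SCGB3A1 replicate 3 barely cleared the highest control. It gave 0.17 ± 0.08 (SE) with a 95% interval of 0.0001 to 0.33, and the unadjusted p stayed under 0.05 in 4 of 12 alternatives. The third, 221978_at, does not carry the ending for shared probes. It read 7.77, 7.72 and 7.68 in the SCGB3A1 arrays, against 7.58, 7.60 and 7.62 in control, again without overlap, and gave 0.12 ± 0.07 (SE; limma adjusted p = 0.833).

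HLA-G, a heavy chain known from the placenta that inhibits natural killer cells, gave the highest single value. Probe set 211528_x_at read 12.44, 12.39 and 12.49 in the SCGB3A1 arrays, against 12.14, 12.32 and 12.10 in control (0.26 ± 0.08 SE, 95% interval 0.083 to 0.43; limma adjusted p = 0.717). Probe set 211529_x_at read 12.44, 12.53 and 12.54, against 12.36, 12.28 and 12.29 in control (0.20 ± 0.07 SE, 95% interval 0.042 to 0.35; limma adjusted p = 0.759). For both, every SCGB3A1 array exceeded every control array. The remaining probe sets overlapped between the groups. Control replicate 1 read 12.15 with 211530_x_at, within the SCGB3A1 range of 12.05 to 12.25 (0.18 ± 0.09 SE), and 210514_x_at read 11.42 to 11.63 in the SCGB3A1 arrays and 11.35 to 11.50 in control (0.08 ± 0.08 SE). All 4 probe sets of HLA-G carry the ending for shared probes, so transcripts of HLA-G and of other heavy chains cannot be told apart here.

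HLA-B and HLA-C are classical heavy chains that present peptides to T cells. Their groups overlapped for 6 of 7 probe sets, the exception being 208729_x_at of HLA-B. HLA-B read slightly higher with each of its 3 probe sets, at 0.08 to 0.09. Probe set 208729_x_at read 13.56, 13.62 and 13.56 in the SCGB3A1 arrays, against 13.53, 13.47 and 13.51 in control (0.08 ± 0.07 SE; limma adjusted p = 0.90), and its groups did not overlap. With 209140_x_at the SCGB3A1 arrays read 13.74, 13.80 and 13.71, against 13.71, 13.59 and 13.72 in control, and control replicates 1 and 3 lay just above SCGB3A1 replicate 3. The 4 probe sets of HLA-C were the closest to 0 of any heavy chain, at -0.02 to 0.04. Probe set 214459_x_at read 13.51, 13.52 and 13.42 in the SCGB3A1 arrays and 13.54, 13.45 and 13.51 in control (-0.02 ± 0.07 SE, 95% interval -0.17 to 0.14).

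HLA-E, which presents leader peptides of other heavy chains to an inhibitory receptor of natural killer cells, read 0.05 to 0.11 higher. With 200905_x_at the values were 11.87, 11.82 and 11.80 in the SCGB3A1 arrays and 11.71, 11.81 and 11.67 in control (0.10 ± 0.07 SE; limma adjusted p = 0.87), where control replicate 2 alone reached the SCGB3A1 range. With 200904_at, which lacks the ending for shared probes, the values were 10.17, 10.23 and 10.40 in the SCGB3A1 arrays, against 10.23, 10.26 and 10.18 in control (0.05 ± 0.08 SE). SCGB3A1 replicate 3 alone was high here, and without it the difference was -0.02.

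**Figure D2:**
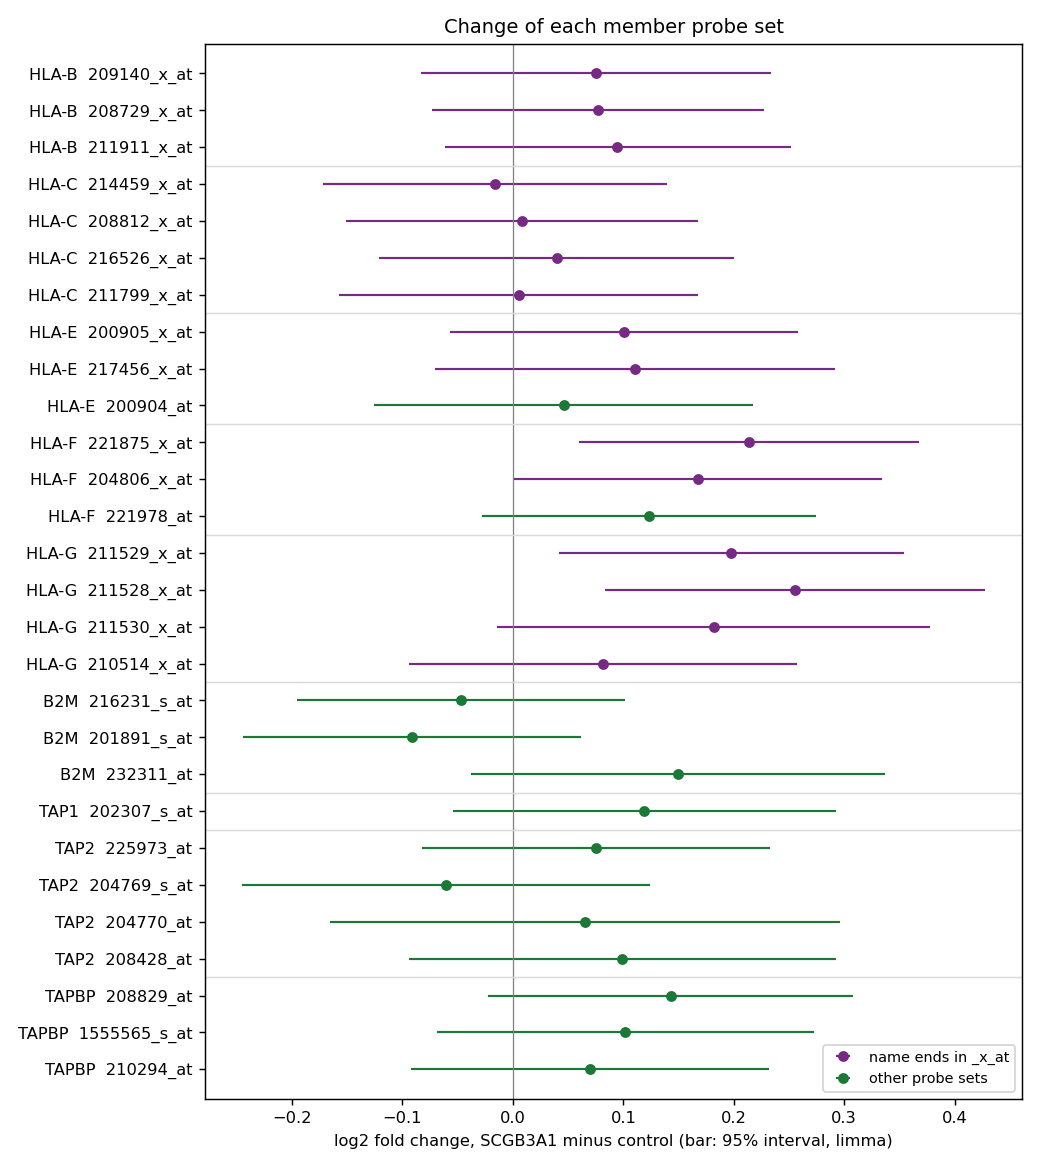
Log2 fold change of each member probe set, SCGB3A1 minus control (horizontal axis), with bars for the 95% interval of limma (3 arrays per group), and colors for probe sets that end in _x_at and for the others. The intervals of 4 probe sets of HLA-F and HLA-G lay above 0, the lowest bound being 0.0001, and those of the other 24 spanned 0.

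B2M, the invariant light chain without which heavy chains do not reach the surface, read lower in 2 of its 3 probe sets. Probe set 216231_s_at read 14.23, 14.25 and 14.26 in the SCGB3A1 arrays, against 14.32, 14.27 and 14.30 in control (-0.05 ± 0.07 SE). Probe set 201891_s_at read 14.06, 14.07 and 14.00, against 14.11, 14.19 and 14.11 in control (-0.09 ± 0.07 SE; limma adjusted p = 0.88). Both groups of arrays were separate in each, although the differences were at most 0.09. The highest value in the whole table is 14.66, and saturation of the signal at this end of the scale was not tested. The third probe set, 232311_at, read 7.30, 7.23 and 7.51 in the SCGB3A1 arrays and 7.26, 7.11 and 7.22 in control (0.15 ± 0.09 SE), and SCGB3A1 replicate 3 lay far above the other 5 arrays. Without that array it read 0.07.

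TAP1 and TAP2 form the pump that carries peptides into the endoplasmic reticulum. The only probe set of TAP1 read 9.71, 9.76 and 9.64 in the SCGB3A1 arrays, against 9.71, 9.49 and 9.55 in control (0.12 ± 0.08 SE; limma adjusted p = 0.86), and control replicate 1 lay within the SCGB3A1 range. Of the 4 probe sets of TAP2, 3 read higher and 1 lower, from -0.06 to 0.10. The one with the highest mean, 225973_at, read 8.74, 8.66 and 8.62 in the SCGB3A1 arrays and 8.61, 8.54 and 8.64 in control (0.08 ± 0.07 SE). Probe set 204770_at had the widest interval of all members, -0.17 to 0.30, as its control arrays ran from 7.02 to 7.45, and without control replicate 2 its sign turned (-0.04).

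TAPBP encodes tapasin, which tethers the heavy chain to the transporter and favors the binding of stable peptides. Probe set 208829_at read 10.79, 10.63 and 10.81 in the SCGB3A1 arrays, against 10.58, 10.64 and 10.57 in control (0.14 ± 0.08 SE; limma adjusted p = 0.827). SCGB3A1 replicates 1 and 3 were high, and replicate 2 lay within the control range. Probe set 1555565_s_at read 9.9469, 9.95 and 10.13, against 9.94, 9.84 and 9.9467 in control (0.10 ± 0.08 SE), so its groups were separate by a margin far under the spread. The last, 210294_at, read 7.09 to 7.18 in the SCGB3A1 arrays and 6.97 to 7.12 in control (0.07 ± 0.07 SE).

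The promoters of HLA-F and HLA-G, the heavy chains with an unadjusted p under 0.05, and of B2M, which read lower, are shown because these genes are known to differ in the elements that interferons act on. Each is the stretch of 250 bases before the start site in RefSeq (GRCh38.p14), on the plus strand, and for HLA-G the window before the last of 3 start sites. Capitals mark any match, on either strand, to an interferon-stimulated response element (ISRE, here GAAA repeated after any 2 bases), an NF-kB motif (GGGNNTTCC), the X2 box (TGACG) or the Y box (CCAAT), the boxes bound by the complex that recruits NLRC5.
HLA-F, chr6:29723184-29723433: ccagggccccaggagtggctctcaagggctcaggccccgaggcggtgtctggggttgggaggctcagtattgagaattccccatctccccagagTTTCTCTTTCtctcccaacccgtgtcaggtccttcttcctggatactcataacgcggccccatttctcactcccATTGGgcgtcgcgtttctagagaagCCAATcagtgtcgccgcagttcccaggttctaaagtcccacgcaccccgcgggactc
HLA-G, chr6:29827575-29827824: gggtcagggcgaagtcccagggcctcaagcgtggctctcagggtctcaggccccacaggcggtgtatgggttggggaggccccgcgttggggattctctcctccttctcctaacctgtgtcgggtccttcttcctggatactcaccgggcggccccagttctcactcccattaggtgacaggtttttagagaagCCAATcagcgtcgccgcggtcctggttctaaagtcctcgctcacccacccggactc
B2M, chr15:44711267-44711516: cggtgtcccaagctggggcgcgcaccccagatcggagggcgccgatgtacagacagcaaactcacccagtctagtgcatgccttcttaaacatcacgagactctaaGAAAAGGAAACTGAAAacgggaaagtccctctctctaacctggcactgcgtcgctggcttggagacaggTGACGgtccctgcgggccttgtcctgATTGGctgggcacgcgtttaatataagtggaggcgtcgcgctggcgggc

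The HLA-F window held 1 ISRE match and 2 Y box matches. In the HLA-G window only 1 Y box match was found, and its other windows held none of the motifs. B2M had 2 ISRE matches that overlap each other, 1 X2 box and 1 Y box. Windows were at hand for 8 of the 9 genes, and an ISRE match was found in those of 5, HLA-F, B2M, TAP1, TAP2 and TAPBP, where 3.02% of all 35116 windows hold one. The NF-kB motif matched in HLA-B and TAPBP (5.78% of all windows), the X2 box in 4 genes (21.2%) and the Y box in 6 (32.0%). By the brightest probe set, the log2 fold changes of genes with and without an ISRE match overlapped. Among genes with one they ran from -0.05 for B2M to 0.21 for HLA-F, and among those without one from -0.02 for HLA-C to 0.20 for HLA-G. By those probe sets, the X2 box split the 8 genes without overlap. With a match, HLA-B read 0.08, TAP2 0.08, HLA-C -0.02 and B2M -0.05, and without one HLA-F read 0.21, HLA-G 0.20, TAPBP 0.14 and TAP1 0.12. This split, by 1 of the 4 motifs searched, was seen after the values and was not tested. No gene on either side passed adjusted p 0.05 in limma. At the border, HLA-B (0.08 ± 0.07) and TAP1 (0.12 ± 0.08 SE) differed by less than either SE. HLA-B, HLA-C, HLA-F and HLA-G were read by _x_at probe sets, which may hold signal of each other and so need not be separate promoters. Other probe sets crossed it. With a match, 232311_at of B2M read 0.15, and without one 210294_at of TAPBP read 0.07 and 210514_x_at of HLA-G 0.08. A match is a description of the letters and not a bound site.

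The other parts of the pathway were read from lists, with 1 probe set per gene. None of their genes passed adjusted p 0.05 in limma (0.0303% of all 19775 genes did). At an unadjusted p under 0.05, 3.93% of all genes were higher and 2.89% lower. Among 12 chaperones and peptide-trimming enzymes, 0 were past that threshold and the median log2 fold change was 0.04. PDIA3, the oxidoreductase of the loading complex, read -0.13 ± 0.08, BCAP31, an export receptor of the endoplasmic reticulum, 0.14 ± 0.11, and the chaperone calnexin (CANX) 0.07 ± 0.07 (SE). Likewise 0 of 10 proteasome genes were past it (median 0.03). PSMB9, the interferon-inducible catalytic subunit whose gene neighbors TAP1, read 0.10 ± 0.07 with no overlap between the groups, the constitutive subunit PSMB7 read 0.09 ± 0.08, and POMP, which helps to assemble the proteasome, read -0.10 ± 0.07.

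**Figure D3:**
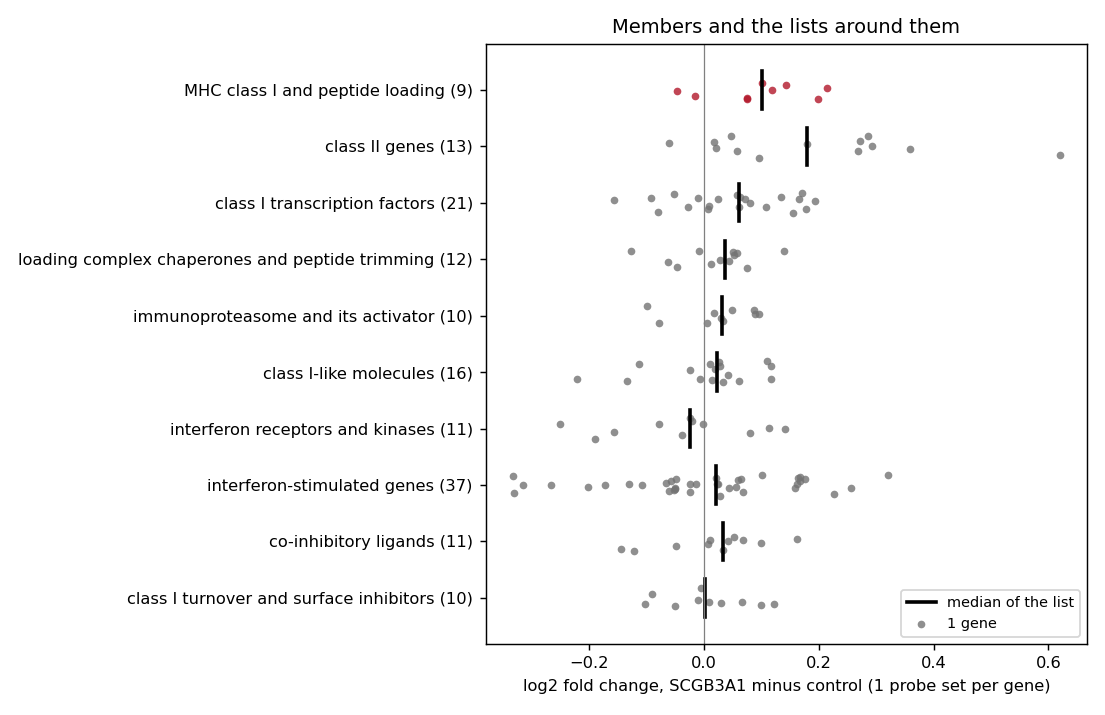
Log2 fold change of every gene, SCGB3A1 minus control (horizontal axis), with 1 point per gene, in the 9 genes of class I and peptide loading and in 9 lists around them, with bars for the medians and the number of genes in parentheses. The median was 0.10 for class I and peptide loading, 0.18 for class II genes and 0.02 for interferon-stimulated genes.

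Of 21 transcription factors that act on class I promoters, 2 were higher and 1 lower at an unadjusted p under 0.05 (median 0.06). RFXANK, a subunit of the complex that binds the X box, read 9.10, 9.05 and 9.09 in the SCGB3A1 arrays, against 8.87, 8.84 and 8.95 in control (0.19 ± 0.07 SE; limma adjusted p = 0.76). IRF9, the DNA-binding part of the type I interferon complex, read 0.17 ± 0.07 and RELA, the NF-kB subunit, -0.16 ± 0.07 (SE). Both had groups that did not overlap, although the other probe set of RELA read 0.08. NLRC5 itself read -0.03 ± 0.08, and CIITA, its class II counterpart, 0.18 ± 0.10 (SE). Both were picked here for their known role after their values were seen.

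The interferon-stimulated genes did not move as one. Of 37, 5 were higher and 5 lower at an unadjusted p under 0.05, with a median of 0.02. CXCL11, a T cell chemokine, read 10.16, 10.24 and 9.94 in the SCGB3A1 arrays, against 9.85, 9.76 and 9.77 in control (0.32 ± 0.09 SE; limma adjusted p = 0.705), while another of its probe sets read -0.14. OASL, an antiviral protein, read 9.50, 9.33 and 9.49, against 9.70, 9.98 and 9.64 in control (-0.33 ± 0.10 SE; limma adjusted p = 0.71). IFIT2, which binds viral RNA, read -0.33 ± 0.10 (SE). For these the groups did not overlap. The others, taken after their values were seen, were OAS2 (0.26), CXCL10 (0.23), BST2 (0.18) and TRIM22 (0.16), which were higher, and IFIT3 (-0.32), IFIH1 (-0.27) and RSAD2 (-0.20), which were lower. Over all its probe sets OAS2 ran from -0.04 to 0.26 and IFIH1 from -0.27 to 0.0009, while those of IFIT3 and RSAD2 all read lower. Among 11 receptors, kinases and inhibitors of interferon signaling the median was -0.025, with 0 higher and 1 lower at that threshold. The inhibitor SOCS1 read -0.25 ± 0.11 (limma adjusted p = 0.787), USP18, another inhibitor, -0.16 ± 0.08 and the receptor chain IFNGR2 0.14 ± 0.09 (SE).

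Class II genes, whose products present peptides from outside the cell, gave larger values. Of 13, 7 were higher and 0 lower at an unadjusted p under 0.05, with a median of 0.18. HLA-DRA read 7.66, 7.63 and 7.50 in the SCGB3A1 arrays, against 7.12, 6.83 and 6.98 in control (0.62 ± 0.09 SE; limma adjusted p = 0.056). HLA-DRB1 read 0.36 ± 0.09 and HLA-DQB1 0.27 ± 0.07 (SE), and no array overlapped in any of these. The other probe set of HLA-DRA read 0.18, and the 7 of HLA-DQB1 ran from 0.02 to 0.30. Control means of HLA-DRA (6.98) and HLA-DRB1 (7.04) were close to the table's median probe set (6.91). Whether class I and class II differed in their shift was not tested. Markers of blood cells, which carry both classes, were read beside them. Over 12 such genes the mean level per array was 6.82 to 6.89 in the SCGB3A1 arrays and 6.75 to 6.84 in control, below the table's median probe set (6.91). Single genes were mixed, and CD3D, CD3E, CD79A and PTPRC, the common leukocyte marker, had means above that median in both groups. PTPRC was at 7.72 in the SCGB3A1 arrays and 7.78 in control. CSF1R, a macrophage receptor, read 0.23 ± 0.09 (SE), LYZ 0.16 ± 0.08 and CD3E 0.13 ± 0.07 (SE). In limma 1 of the 12 blood cell markers was past an unadjusted p of 0.05, and PTPRC read -0.06 ± 0.10 (SE). Their part in the class I values was not tested.

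Class I-like molecules and pseudogenes made up the rest of the family. MICA, a stress ligand of the activating receptor NKG2D, read 8.17, 8.44 and 8.36 in the SCGB3A1 arrays, against 8.55, 8.46 and 8.64 in control, with no overlap (-0.22 ± 0.09 SE; limma adjusted p = 0.782). It was the only one of 16 class I-like genes past an unadjusted p of 0.05 (median 0.02). AZGP1, a soluble class I-like protein, read -0.13 ± 0.08 and the lipid-presenting CD1C 0.12 ± 0.09 (SE). The pseudogene HLA-J read 0.10 ± 0.07 (SE), with all SCGB3A1 arrays above control, and its probe set also ends in _x_at.

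**Figure D4:**
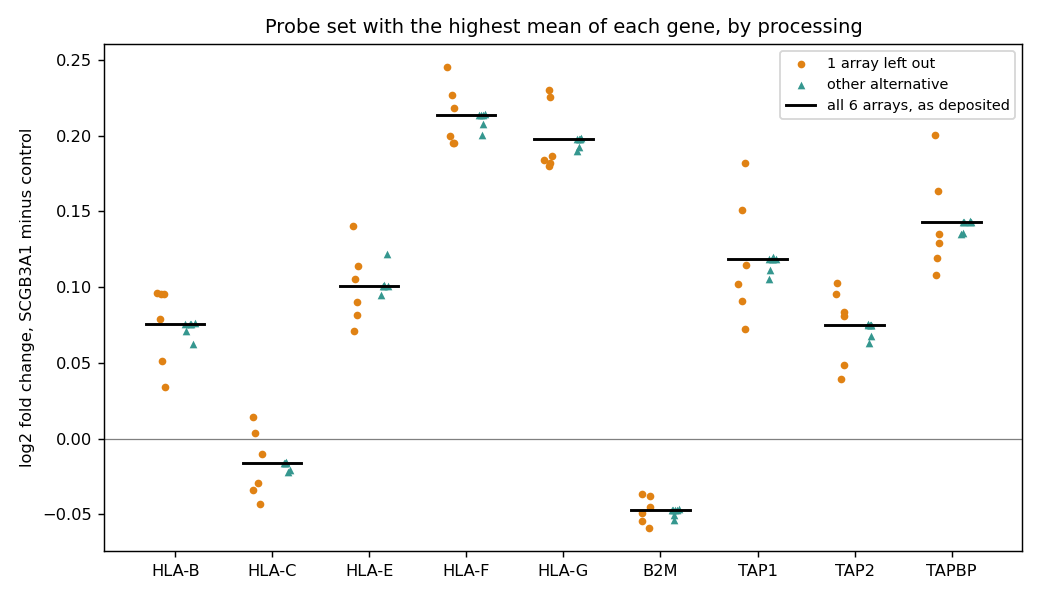
Log2 fold change, SCGB3A1 minus control (vertical axis), of the highest-mean probe set of each gene with all 6 arrays (bars), with 1 array left out in turn (circles) and under the other alternatives (triangles). HLA-F stayed between 0.20 and 0.25 and B2M between -0.06 and -0.04, while HLA-C crossed 0.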

How the data were processed

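RNA of 6 SUM159 oncosphere samples (100 ng each, 3 with SCGB3A1 and 3 with the empty vector) was hybridized to Affymetrix human expression arrays, 1 sample per array. The deposited log2 values were made by the authors with robust multiarray average (RMA), that is background correction, quantile normalization and 1 summary value per probe set. They ran from 5.66 to 14.66 with 0 missing. RMA shrinks small differences of dim probe sets and hides any change in total RNA. There are no detection calls, and the number of arrays limits the precision. The chip definition is not given in the sources used here.

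Of 54675 probe sets, 62 manufacturer controls were set aside. In the platform annotation, with symbols looked up again in RefSeq by gene ID (0 changed), 41091 probe sets had 1 symbol, 1801 several and 11721 none. After the study's methods, all 54613 probe sets were compared with limma 3.58.1 in R 4.3.3 (lmFit, eBayes, two-sided, Benjamini-Hochberg). The fit was also run on simulated arrays with independent noise of the same size in each array. That simulation holds no array that stands apart, as control replicate 2 does here, so it does not bear on such an array. Fold changes are SCGB3A1 minus control. Lists were counted by the brightest probe set of a gene (181 of 200 genes had one). Members, lists and motifs were chosen with earlier results of these data known. The genes named were all members, the 3 smallest p-values of each list, SCGB3A1, and the 3 genes nearest the members' mean profile. Outside this rule, the other markers of cell type that are named, NLRC5, CIITA and the further interferon-stimulated genes at an unadjusted p under 0.05 were chosen after their values were seen. The alternatives were median centering, cyclic loess, a variance trend, array weights, the replicate number as a block, leaving out each array, leaving out dim or _x_at probe sets, other gene summaries and the study's signature criteria. RefSeq promoter windows were searched for motifs on both strands.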

Additional observations from a re-analysis of the deposited data

How the results depend on the processing

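Under every alternative run, 0 member probe sets passed adjusted p 0.05, also by the study's signature criteria. At an unadjusted p under 0.05 the count ran from 2, without control replicate 3, to 5 with 1 array left out in turn, and it was 0 without probe sets ending in _x_at, which removes 15 of the 28 and all of HLA-B, HLA-C and HLA-G. The median of the 9 genes ran from 0.073, without control replicate 2, to 0.11 with 1 array left out. Of 348 member values under an alternative, 337 kept their sign. Many of these could not turn, so the share does not measure stability. A variance trend, the replicate block and the filters on dim or _x_at probe sets leave a fold change as it was. Median centering shifts all fold changes alike by a very small amount. All 11 reversals came with array weights, cyclic loess or an array left out. With 1 array left out, HLA-C ran from -0.029 to 0.039 (208812_x_at), -0.047 to 0.039 (211799_x_at) and -0.043 to 0.014 (214459_x_at), HLA-E from -0.020 to 0.094 (200904_at), TAP2 from -0.042 to 0.17 (204770_at) and TEK, an endothelial marker, from -0.23 to 0.0038. With array weights 208812_x_at read -0.0011 and 211799_x_at -0.016, and with cyclic loess 211799_x_at read -0.0002. The cause was not tested. Same-numbered replicates did not deviate together (correlations of 0.14, -0.14 and -0.09), so the numbers were not taken as pairs, and with the replicate block 3 member probe sets had an unadjusted p under 0.05, 0 passed, and the median was 0.10. HLA-DRA passed with a variance trend (adjusted p = 0.037), array weights (0.024) and without _x_at probe sets (0.039). The filter on dim probe sets left 27 of 28.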

Other observations

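Ligands that T cells meet beside class I and genes that remove class I from the cell were also read, with 1 probe set per gene. Of 11 co-inhibitory ligands, 0 had an unadjusted p under 0.05 in limma, and the median log2 fold change was 0.03. CD276 read 0.16 ± 0.08, CD86 -0.15 ± 0.09 and CD80 -0.12 ± 0.09 (SE). Among 10 genes of class I turnover 0 were past that threshold, and the median was 0.0019. DERL1, a channel of protein export from the endoplasmic reticulum, read 0.12 ± 0.08, WDR11 -0.10 ± 0.08 and MARCHF9, a ubiquitin ligase that takes class I from the surface, 0.10 ± 0.09 (SE). Of the marker lists, 7 endothelial genes had a median of -0.01 (CLDN5 0.12, CDH5 -0.13, TEK -0.11), 10 luminal genes of -0.0027 (ESR1 -0.17, GATA3 -0.12, KRT18 0.08) and 10 mesenchymal genes of -0.07 (ZEB1 -0.25, CD44 -0.16, CDH2 -0.11). Other probe sets of some of these markers read higher, up to 0.19 for CD44, 0.04 for ZEB1, 0.06 for GATA3 and 0.05 for TEK. All probe sets of ESR1 and CDH2 read lower.

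The genes whose deviations over the 6 arrays were closest to the mean of the 9 members were VIPR2, SRPRB and MTFMT, with root mean square differences of 0.0079, 0.0094 and 0.012 on the log2 scale among 17813 genes that varied at least as much. They are given as a description, and all had a limma adjusted p of 0.85 or 0.86.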
